A study of Homo sapiens with 10 samples.

Results

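KYSE450, 1 of 3 esophageal squamous cell carcinoma (ESCC) lines in an interferon-beta (IFN-β) experiment, was set against the other two lines, KYSE30 and KYSE180. The comparison used 6 of the 10 libraries of the series: 2 of KYSE450 and 4 of the other lines. Each line gave 1 untreated library, from cells given saline buffer, and 1 library from cells given IFN-β at 1000 IU/ml for 72 h. The other 4 libraries belong to a knockdown experiment in KYSE30 and KYSE180, and only its vector controls are used here, as side values. Members are the genes that set KYSE450 apart from each of the other lines, among 12497 tested of 20502 named genes. They did so by a test over both treatments together or by size within each treatment. All 3 are established human cell lines, and each was sequenced once per treatment. What differs between the lines' genomes, their culture histories and their libraries therefore cannot be told apart.

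Squamous epithelium of the esophagus rests on a basal layer that expresses keratins 5 and 14 and anchors to laminin through the integrin α6β4 of hemidesmosomes. Cells that leave this layer switch to other keratins, tighten their junctions and build a cornified envelope. ESCC lines keep parts of this program to different degrees, and they also differ in the germline genes they have switched on, in lost or gained chromosome segments and in antigen presentation.

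Levels are FPKM, a read density per gene length and library, after median-of-ratios scaling, which sets the typical gene equal between libraries. RMRP and RPPH1, 2 abundant non-coding RNAs, took 26.5% of the named-gene total in the treated KYSE450 library and between 37.2% and 41.9% in the other 5. Without scaling the log2 difference of KYSE450 from the mean of the other lines had a median over genes of -0.30 among untreated and 0.16 among treated libraries. The labelled cell type was checked against its markers. KYSE450 held squamous transcripts in both libraries, untreated and treated, among them KRT5 (4170 and 2050 FPKM), KRT6A (3040 and 1750), TP63 (89.2 and 79.0) and DSG3 (178 and 118), and CDH1 was at 56.1 and 58.3. Markers of leukocytes and endothelium stayed at or below 0.311 FPKM in KYSE450, and the highest of 6 fibroblast markers was COL3A1 at 1.18 and 0.258. Of the glandular markers only AGR2 was present in KYSE450, at 125 and 39.6, and it was higher in KYSE30, at 792 and 910. KYSE30 was the line with few squamous keratins, with KRT5 at 3.11 and 1.46.

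Against both other lines at once, 1454 genes were called higher in KYSE450 and 1285 lower, which is 11.6% and 10.3% of the genes tested. A call needed an adjusted p below 0.05 in limma against KYSE30 and against KYSE180, in the same direction. It tests the difference from each line averaged over both treatments and does not require a difference within each. By size alone, 475 genes (3.8%) were at least 2-fold higher than each other line under both treatments and 402 (3.22%) at least 2-fold lower, and without scaling these counts were 325 and 416. The same test called 1408 genes higher and 1055 lower in KYSE30, and 1445 and 1396 in KYSE180. The libraries of 1 line correlated across genes at 0.969 to 0.983 and libraries of different lines at 0.821 to 0.859.

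The differences were alike in the 2 treatments. The difference between KYSE450 and the mean of the other lines among untreated libraries correlated across genes at r = 0.917 with that among treated libraries, which share no library but share the lines. Of 688 genes that were 2-fold higher in the untreated comparison, 69.0% were also 2-fold higher in the treated one, and of 570 that were 2-fold lower 70.5% were. Of the genes tested, 254 had passed the filter on low values through KYSE450 alone, and 238 of these were among the genes called higher. In the other direction, 260 genes reached 1 FPKM in all 4 libraries of the other lines and stayed under it in both KYSE450 libraries.

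The spread behind these calls is the disagreement of the 2 libraries of a line once the mean treatment effect is removed. The p-values therefore speak of these lines only, and an exact permutation of 3 lines cannot give a p below 0.333. Log2 differences given with ± are from the mean of the other lines. Their SE holds the same spread and leaves out how far KYSE30 and KYSE180 lie apart. The adjusted p beside them rests on the larger of the 2 p-values against single lines, not on that mean difference. With the line as a random block limma called 14 genes higher and 23 lower, and with 1 mean per line none (286 and 287 at an unadjusted p under 0.05). Without 1 or the other KYSE30 library the counts were 665 and 670 higher and 625 and 608 lower, and without the untreated or the treated KYSE450 library they were 878 and 862 higher and 756 and 675 lower. With each of the 6 libraries left out in turn, 473 of the higher and 444 of the lower genes were called every time, and these are the genes said to have held in what follows.

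**Figure D1:**
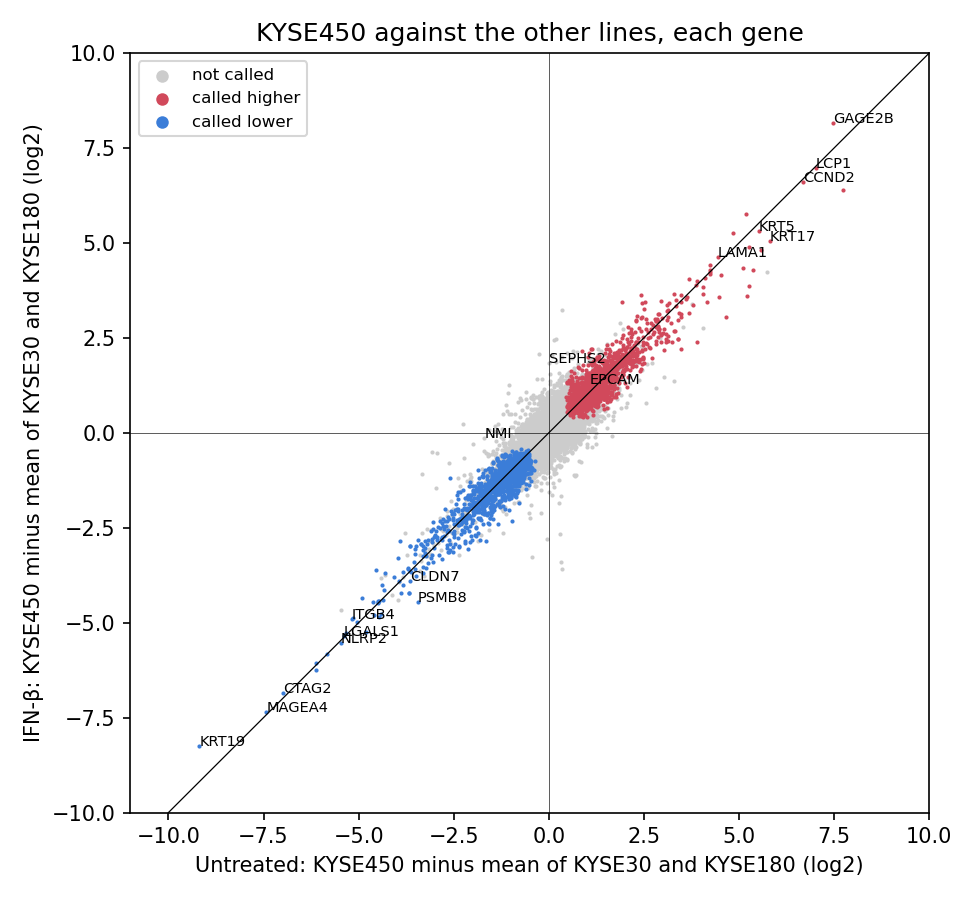
Each point is 1 of 12497 genes; the x axis is its log2 difference between KYSE450 and the mean of KYSE30 and KYSE180 among untreated libraries, and the y axis the same among IFN-β-treated libraries. Red and blue points are the 1454 genes called higher and the 1285 called lower, the line marks equal differences, and most called genes lie near it.

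Keratins set KYSE450 apart in both directions. KRT19, a keratin of simple and basal epithelium, was at 0.895 FPKM in untreated and 2.25 in treated KYSE450, against 667 and 583 in KYSE180 and 1830 and 1690 in KYSE30. Both KYSE450 libraries were far below every other library (log2 difference from the mean of the other lines -8.72 ± 0.22 SE, adjusted p = 5.41e-06), and its gap, the smallest of the 4 differences from another line within a treatment, was the widest of all genes called lower. In bulk RNA, fewer cells with a transcript and less of it per cell cannot be told apart. The gene lies on chromosome 17, 41523617 to 41528308 (GRCh38, minus strand). The other simple keratins tested were not called: KRT8 and KRT18 of KYSE450 lay within or close to the range of the other lines in the plot of keratins, and KRT7 was as low in KYSE180.

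Keratins of stratified epithelium went the other way. Of 14 tested, 6 were called higher (42.9%, against 11.6% of all genes) and 1 lower, KRT23 (7.14% against 10.3%). Their median difference was 2.15 on the log2 scale, against 0.00287 over all genes. KRT17, a keratin of activated and tumour keratinocytes, was at 2360 and 1430 FPKM in KYSE450, at 416 and 421 in KYSE180 and at 3.28 and 3.36 in KYSE30 (log2 difference 5.43 ± 0.20, adjusted p = 0.000798). The KYSE450 libraries were above both KYSE180 libraries, and KYSE30 held little of the transcript. KRT15, a basal keratin, was at 1260 and 284 against 222 and 106 in KYSE180 and 31.1 and 26.6 in KYSE30 (adjusted p = 0.0217). KRT5, KRT6A and KRT13 were called as well, with smallest log2 gaps to KYSE180 of 0.91, 0.73 and 0.95, so that most of their mean difference came from the low values of KYSE30. KRT17 and KRT6C held with each library left out, whereas KRT6A and KRT15 reached adjusted p-values of 0.144 and 0.149 without the untreated KYSE180 library, KRT5 0.0754 without the treated KYSE30 library and KRT13 0.239 without the untreated KYSE450 library. KRT14, the usual partner of KRT5, did not follow: it was at 97.9 and 40.2 in KYSE450 and at 1090 and 571 in KYSE180.

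Of 31 junction genes 3 were called higher (9.68%, against 11.6% of all genes) and 7 lower (22.6% against 10.3%). Those called lower were mainly genes of tight junctions. CLDN7, a claudin of tight junctions, was at 6.93 and 7.90 FPKM in KYSE450 against 82.1 to 136 in the other 4 libraries (log2 difference -3.78 ± 0.15, adjusted p = 2.41e-05). CLDN4 was at 14.7 and 12.6 against 112 to 210. The scaffold gene TJP3 was at 0.0373 and 0.0603 against 7.94 to 9.06, and the cingulin gene CGN at 0.870 and 0.585 against 6.33 to 16.4. In none of these 4 genes did the groups overlap, and in 21.6% of all genes tested both KYSE450 libraries were likewise below the other 4. The gap junction gene GJB5 was called lower too. In contrast EPCAM, an epithelial adhesion molecule, was at 257 and 323 against 122 to 138 (adjusted p = 0.00367), and the desmosomal cadherins DSC2 and DSC3 were called higher. All 7 lower genes held with each library left out, and none of the 3 higher genes did, EPCAM with an adjusted p of 0.0996 without the treated KYSE30 library.

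In the hemidesmosome, integrin and laminin list 4 of 21 genes were called lower and none higher. Over all genes 10.3% were called lower and 11.6% higher. ITGB4, the β4 chain of the integrin that anchors basal cells, was at 0.0746 and 0.0603 FPKM in KYSE450, at 20 and 12.9 in KYSE180 and at 71.3 and 71.7 in KYSE30 (log2 difference -5.04 ± 0.17, adjusted p = 2.46e-05). Its partner ITGA6 was not among the genes called. ITGA2, ITGB5 and ITGB6, which encode receptors for collagen and for RGD-bearing matrix, were the other 3, of which ITGB5 held with each library left out, as ITGB4 did. Outside that list, KYSE450 alone carried LAMA1, the laminin α1 chain, at 21.5 and 25.7 against 0.0173 to 0.0853, and ITGA4, a fibronectin and VCAM-1 receptor chain better known from leukocytes, at 10.3 and 10.9 against 0.0533 to 0.147.

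**Figure D2:**
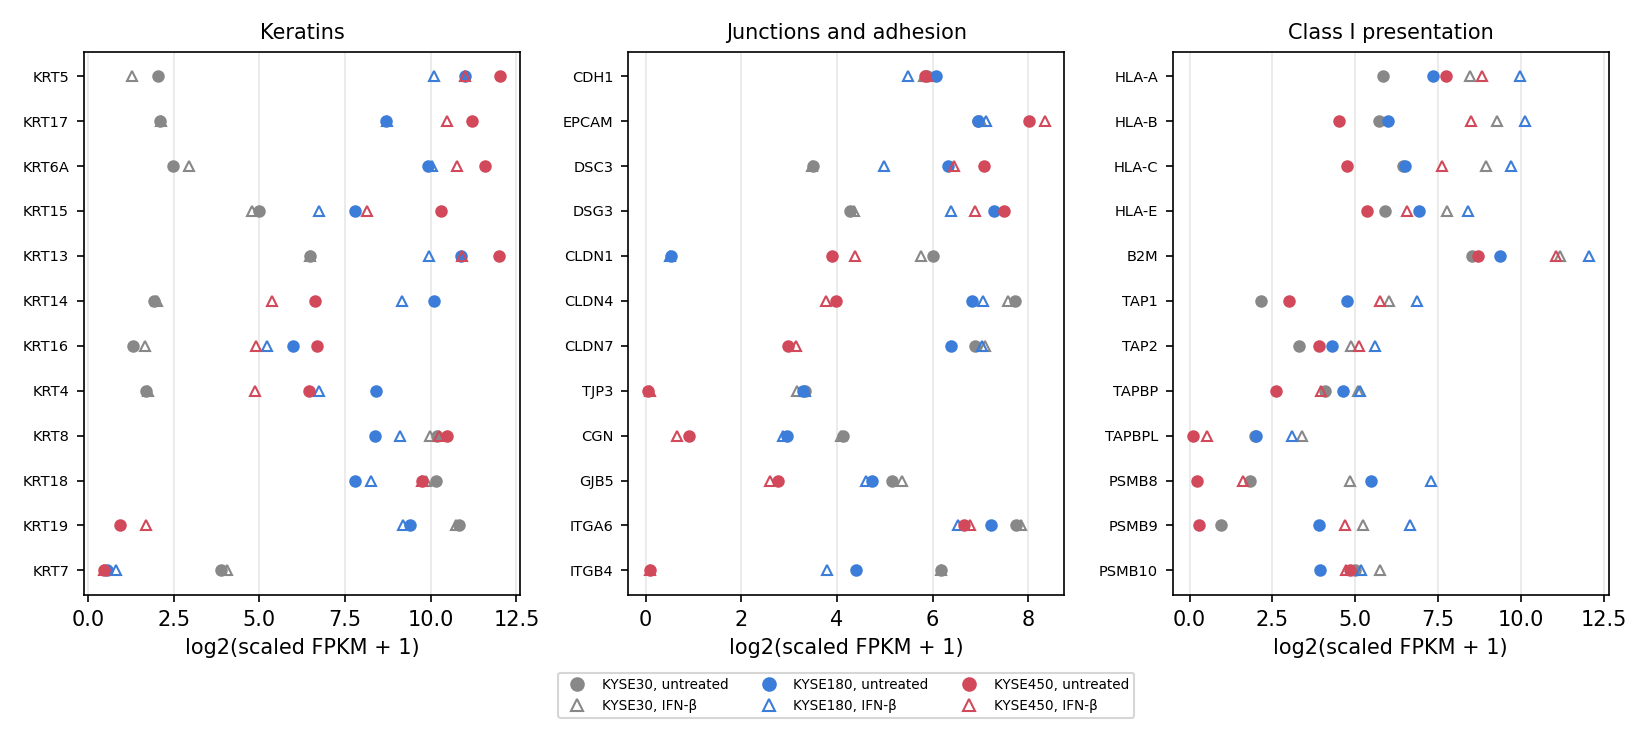
Points are levels per library on the log2(scaled FPKM + 1) axis for keratins, junction and adhesion genes, and class I presentation genes; colour marks the line and shape the treatment. In KYSE450, ITGB4 lies near 0 and KRT19 far to the left of every other library, while KRT17 and EPCAM lie to the right of every other library.

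Among transcription factors and Notch pathway genes of squamous epithelium 11 of 34 were called lower and none higher, with a median of -0.74. The share called lower was 32.4%, against 10.3% of all genes. SOX15 was at 0.423 and 0.508 FPKM against 14 to 23.7 in the other libraries (log2 difference -3.63 ± 0.18, adjusted p = 6.28e-05). TFAP2C, an AP-2 factor of ectoderm, was at 1.04 and 1.40 against 13.1 to 17.4, and ELF3, an ETS factor of differentiating epithelium, at 9.77 and 6.60 against 24.9 to 85.9. BARX2, NOTCH1, NOTCH3, JAG1 and HEY1 were also called lower. SOX15, TFAP2C, ELF3, BARX2 and HEY1 were the 5 that held with each library left out. TP63, the master factor of squamous identity, was at 109 and 83.6 FPKM in KYSE180 and 27.8 and 30.3 in KYSE30, so KYSE450 lay near KYSE180.

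Late differentiation genes split. Of 22 cornified envelope genes tested, 5 were called higher (22.7%, against 11.6% of all genes) and 6 lower (27.3% against 10.3%). SPRR1B, a small proline-rich envelope precursor, was at 94.4 and 65.5 FPKM against 11.6 to 26.0 in KYSE180 and 1.77 to 2.00 in KYSE30, and SPRR1A, SPRR2A, SPRR2D and DSG1 were called with it. The envelope plakins PPL and EVPL, IVL, CDSN, C9orf169 and CLIC3 were called lower, CLIC3 at 0.0622 and 0.181 against 4.78 to 12.1. Of 14 S100 genes 1 was higher (7.14%, against 11.6% of all genes), S100A2 at 2790 and 1540 against 84.5 to 832. Another 3 were lower (21.4% against 10.3%). S100P was at 0 and 0.103 against 4.65 to 11.4, S100A4 at 15.9 and 5.72 against 41.7 to 59.7, and S100A14 at 84.7 and 50.3 against 136 to 382. With each library left out, the 4 SPRR genes, CLIC3, S100P and S100A14 held, while S100A2 and S100A4 reached adjusted p-values of 0.0697 and 0.0609 without the untreated KYSE180 library.

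The 20 genes with the largest gaps upward were low in the other lines, at or below 5.78 FPKM in each of their libraries. LCP1, which encodes plastin-2, an actin-bundling protein of leukocytes that many carcinoma lines also express, was at 178 and 193 FPKM against 0.354 to 0.565 (log2 difference 6.99 ± 0.13, adjusted p = 1.8e-06). The leukocyte marker PTPRC was at 0.0249 and 0 in the same libraries. CCND2, a D-type cyclin, was at 106 and 101 against 0 to 0.0911 (6.65 ± 0.14, adjusted p = 1.8e-06). MMP13, a collagenase, was at 96.4 and 132 against 3.76 and 5.28 in KYSE180 and 0.128 and 0.245 in KYSE30. Further genes of the first 20 were DPYSL3, an actin and microtubule regulator of neurons, DMRT2, GALNT5, HOXA9, MAGED1, SLC6A15, ARMCX3, NUDT11, ZNF215, PECI and EFCAB4B, and their smallest log2 gaps ran from 3.16 for ZNF215 to 4.75 for PECI. All 20 had levels in both KYSE450 libraries above every library of the other lines, as did 24.1% of all genes tested. They were picked by their gaps, so this separation is no further result. All but MMP13, GALNT5, SNRPN and SLC6A15 stayed under 1 FPKM in the other lines and passed the filter through KYSE450 alone.

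Imprinted genes held 2 of these 20. NDN, a growth regulator silenced on the maternal copy on chromosome 15, was at 16 and 13.3 FPKM against 0 to 0.0427, and SNRPN, its neighbour in the same imprinted domain, at 36.4 and 24.6 against 0 to 1.39. With GRB10 and PLAGL1, 4 of 14 imprinted genes tested were called higher and held with each library left out, and 2 were called lower, MEST and IGF2. The shares were 28.6% higher and 14.3% lower, against 11.6% and 10.3% of all genes. Of 28 HOX genes 3 were called higher (HOXA9, HOXA11 and HOXD4) and 3 lower, HOXB13 and HOXC10 among them, or 10.7% in each direction, near the shares over all genes (11.6% and 10.3%). HOXA9, a posterior patterning gene, was at 21.2 and 24.5 against 0.410 to 0.810.

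**Figure D3:**
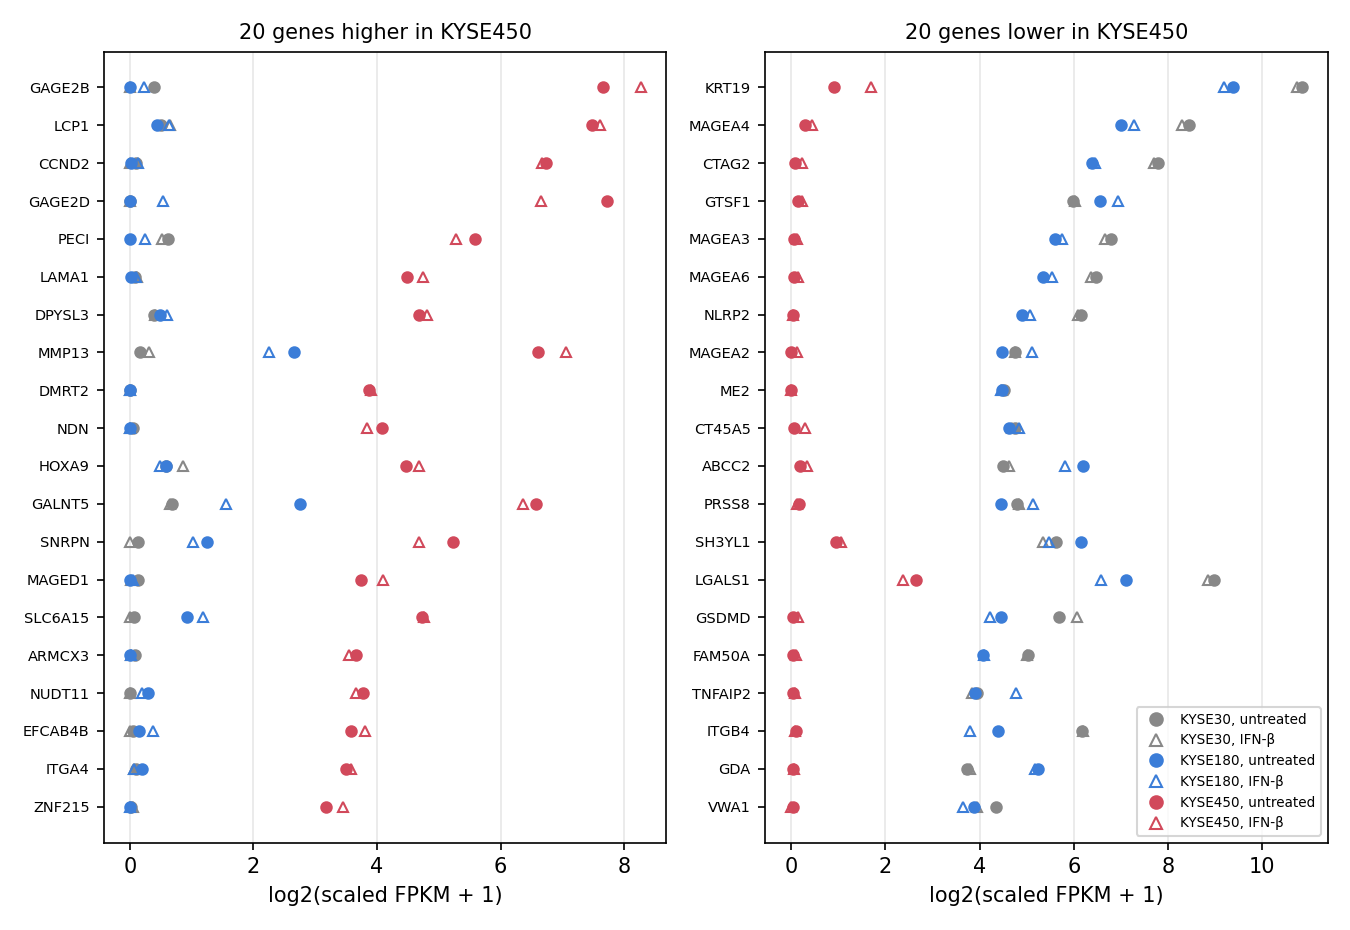
Levels per library, on the log2(scaled FPKM + 1) axis, of the 20 genes with the largest smallest gap in each direction; colour marks the line and shape the treatment. In every row the KYSE450 points lie apart from the points of the other lines, which follows from the choice of genes by gap. KRT19 has the widest gap on the right panel.

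Germline genes that tumours reactivate were often low in KYSE450. Of 14 cancer-testis antigen genes tested, 6 were called lower (42.9%, against 10.3% of all genes) and none higher, with a median of -2.49. All 6 held with each library left out. MAGEA4, on chromosome X, 151912509 to 151925170, was at 0.224 and 0.353 FPKM in KYSE450, at 127 and 153 in KYSE180 and at 345 and 314 in KYSE30 (log2 difference -7.39 ± 0.14, adjusted p = 1.8e-06). CTAG2, which encodes LAGE-1, was at 0.0622 and 0.172 against 82.1 to 219. MAGEA3 was at 0.0497 and 0.0947 against 47.2 to 110, and MAGEA6 at 0.0497 and 0.103 against 39.6 to 88.2. GTSF1, a germline factor of the piRNA pathway on chromosome 12, was not on that list and was at 0.112 and 0.181 against 62.5 to 121. NLRP2, a gene of oocytes and early embryos, was at 0.0373 and 0.0258 against 28.9 to 69.8, and CT45A5 at 0.0497 and 0.232 against 23.7 to 27.7.

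The pattern was not uniform, because KYSE450 carried a different set. GAGE2B was at 201 and 307 FPKM against 0 to 0.310, and GAGE2D at 210 and 99.8 against 0 to 0.455. Neither was on the list of cancer-testis antigens, so its count of none called higher does not cover them. GAGE genes are near-identical copies, as are MAGEA2, MAGEA3 and MAGEA6 and the CT45 genes, so reads may be shared among copies and the split within each family is uncertain. Several MAGEA genes were on in 1 of the other lines only and were not called: MAGEA1 and MAGEA12 were at 28.3 and 28.6 in untreated KYSE180, MAGEA10 at 18.9 in untreated KYSE30, and all 3 were at or below 0.0258 in KYSE450.

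The promoter stretches of 3 low and 2 high genes are shown for their CG content, from RefSeq (GRCh38.p14), 250 bases before to 50 after the start, 5′ to 3′, with each CG in capitals. MAGEA3 lies at chrX:152698544-152698843 on the plus strand, MAGEA6 at chrX:152769640-152769939 (minus), GTSF1 at chr12:54473553-54473852 (minus), NDN at chr15:23687256-23687555 (minus) and LCP1 at chr13:46182128-46182427 (minus).
MAGEA3: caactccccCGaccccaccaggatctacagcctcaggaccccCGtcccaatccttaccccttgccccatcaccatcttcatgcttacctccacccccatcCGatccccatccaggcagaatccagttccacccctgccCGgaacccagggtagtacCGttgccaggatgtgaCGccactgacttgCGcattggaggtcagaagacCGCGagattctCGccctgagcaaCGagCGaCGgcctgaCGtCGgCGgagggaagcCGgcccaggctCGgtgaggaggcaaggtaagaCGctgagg
MAGEA6: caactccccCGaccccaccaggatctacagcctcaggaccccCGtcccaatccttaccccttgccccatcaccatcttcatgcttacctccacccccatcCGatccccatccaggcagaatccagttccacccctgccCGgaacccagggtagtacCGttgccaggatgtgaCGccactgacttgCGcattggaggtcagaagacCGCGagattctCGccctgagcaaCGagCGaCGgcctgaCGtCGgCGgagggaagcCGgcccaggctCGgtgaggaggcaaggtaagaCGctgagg
GTSF1: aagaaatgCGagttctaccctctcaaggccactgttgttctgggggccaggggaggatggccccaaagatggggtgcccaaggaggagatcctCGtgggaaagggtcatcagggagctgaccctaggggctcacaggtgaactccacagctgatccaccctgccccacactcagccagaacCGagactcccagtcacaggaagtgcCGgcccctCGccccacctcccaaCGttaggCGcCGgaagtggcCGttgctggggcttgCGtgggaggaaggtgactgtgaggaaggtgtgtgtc
NDN: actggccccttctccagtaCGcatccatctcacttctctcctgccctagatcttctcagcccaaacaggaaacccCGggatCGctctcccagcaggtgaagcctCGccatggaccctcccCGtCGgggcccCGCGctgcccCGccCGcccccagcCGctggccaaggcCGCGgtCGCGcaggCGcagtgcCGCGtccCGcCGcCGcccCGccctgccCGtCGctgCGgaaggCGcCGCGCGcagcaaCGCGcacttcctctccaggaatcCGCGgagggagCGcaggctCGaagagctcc
LCP1: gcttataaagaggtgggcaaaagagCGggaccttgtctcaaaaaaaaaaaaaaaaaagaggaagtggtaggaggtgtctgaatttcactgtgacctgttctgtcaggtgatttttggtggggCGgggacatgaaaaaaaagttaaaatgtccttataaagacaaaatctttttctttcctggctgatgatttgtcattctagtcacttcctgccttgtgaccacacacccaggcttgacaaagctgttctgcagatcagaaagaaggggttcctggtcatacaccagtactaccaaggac
The stretches of MAGEA3 and MAGEA6 were identical at 300 of 300 bases, with 19 CG each. NDN held 35, GTSF1 10 and LCP1 2. Of 35116 promoter stretches in the table, whose median is 14, 42.9% held as many CG as MAGEA3, 14.1% as many as NDN, 56.4% as many as GTSF1 and 89.0% as many as LCP1. These 5 stretches are a description of hand-picked genes and bear on no difference between high and low genes. The table covers 69.6% of the genes tested, which is too few for a comparison over all called genes, and methylation was not measured.

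Several proteases of the cell surface and the matrix were lower, and a few were higher. PRSS8, prostasin, was at 0.124 and 0.0947 FPKM against 20.9 to 34.1 (log2 difference -4.65 ± 0.18, adjusted p = 1.73e-05), and ST14, matriptase, which acts with it, at 8.82 and 9.22 against 22.2 to 42.2. KLK6 was at 0 and 0.129 against 4.98 to 10.6. These are on a list of protease inhibitors, kallikreins and membrane serine proteases. Of its 20 genes tested 5 were called lower (25%, against 10.3% of all genes) and 1 higher, SERPINB2 (5% against 11.6%). Of 15 genes of matrix proteases and their inhibitors 4 were lower (26.7%), among them the inhibitor gene TIMP2 and MMP14, the latter at 6.59 and 5.00 against 24.2 to 31.9. The 2 higher ones were MMP13 and ADAMTS1 (13.3%, near the share over all genes). PRSS8, ST14, KLK6, MMP2, MMP13, MMP14 and TIMP2 held with each library left out. LGALS1, the gene of the glycan-binding protein galectin-1, was at 5.26 and 4.16 against 94.2 to 501 (-5.37 ± 0.15, adjusted p = 9.23e-06).

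Of 27 mesenchymal genes 4 were called higher (14.8%, against 11.6% of all genes) and 1 lower (3.70% against 10.3%). TAGLN, an actin-binding protein of smooth muscle, was at 26.6 and 19.3 FPKM against 0.640 to 2.61, and CAV1, the caveolin gene, at 751 and 581 against 151 to 313. CALD1 and CDH2 were the other genes called higher, and S100A4 the gene called lower. TAGLN alone of these held with each library left out, and CAV1 reached an adjusted p of 0.106 without the untreated KYSE30 library.

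Growth factor receptors and ligands held 11 lower and 2 higher genes of 40 (27.5% and 5%, against 10.3% and 11.6% of all genes). FGFR3 was at 1.54 and 0.663 FPKM against 15.6 to 25.5 (log2 difference -3.22 ± 0.17, adjusted p = 7.57e-05), and the ephrin receptor gene EPHA2 at 1.08 and 1.90 against 9.18 to 33.9. ERBB2, ERBB3, TGFA and HBEGF of the EGF receptor family and its ligands were lower by smaller amounts, whereas NRG1, a ligand of ERBB3, was at 35.8 and 46.1 against 6.84 to 15.7. The other gene called higher was IGFBP6, which binds IGF2, at 684 and 334 against 16.9 to 53, and IGF2 itself was at 0.0124 and 0.00861 against 0.574 to 2.33. In the Wnt, TGF-β and BMP list 11 of 38 were lower (28.9%) and 3 higher (7.89%). Its lower genes included the signal-carrying SMAD2, SMAD3 and SMAD4, the target ID1 and the receptors FZD1, FZD2, FZD7 and LRP5, with SMAD3 at 2.15 and 3.37 against 9.61 to 14.6. DKK3, FZD8 and WNT10B were the 3 called higher. With each library left out 5 of the 11 lower receptor and ligand genes and both higher ones held, and in the Wnt, TGF-β and BMP list 4 lower genes, WNT7A, FZD7, SMAD3 and ID1.

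In the p53 pathway list 9 of 24 genes were lower and 1 higher (37.5% and 4.17%, against 10.3% and 11.6% of all genes). CDKN1A, the cell cycle inhibitor p21, was at 6.11 and 4.43 FPKM against 21.8 to 27.1 (log2 difference -2.03 ± 0.16, adjusted p = 0.000461). GDF15 was at 0.398 and 1.88 against 6.14 to 21.9, and BBC3, the death gene PUMA, at 0.336 and 0.663 against 5.53 to 8.88. AEN, a p53-induced nuclease, was the exception at 41.5 and 45.5 against 6.80 to 11.8. These 4 held with each library left out, and the other 6 lower genes did not. Of 31 cell cycle regulators 2 were higher and 3 lower (6.45% and 9.68%), no larger shares than over all genes. CCNE1, the G1/S cyclin, was at 24.5 and 23.0 against 6.24 to 11.8, next to the much larger gap of CCND2.

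Cell death genes held 8 lower and 1 higher of 29 (27.6% and 3.45%, against 10.3% and 11.6% of all genes). GSDMD, the pore protein of pyroptosis, was at 0.0249 and 0.112 FPKM against 17.7 to 65.7 (log2 difference -5.01 ± 0.16, adjusted p = 1.62e-05), and its relatives GSDMB and GSDMC were lower too. TNFSF10, the death ligand TRAIL, was at 1.72 and 6.37, with 150 and 167 in KYSE180 and 11 and 30.6 in KYSE30. BCL2L1 and BAX were lower by about 1 log2 unit or less. MLKL, the effector of necroptosis, was higher at 21.1 and 30.3 against 3.43 to 9.96 (1.92 ± 0.26, adjusted p = 0.00515). GSDMD and GSDMC held with each library left out, while TNFSF10 and MLKL reached adjusted p-values of 0.0618 and 0.0712 without the untreated KYSE450 library.

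Metabolic genes differed gene by gene. FTL, the ferritin light chain, was at 267 and 329 FPKM against 1960 to 3590 (log2 difference -3.14 ± 0.18, adjusted p = 0.000155), and ABCC2, an efflux pump, at 0.149 and 0.267 against 21.7 to 72.6. They belong to the NRF2 list, where 6 of 39 were lower (15.4%) and 3 higher (7.69%), the latter NR0B1, SLC7A5 and NFE2L2, the gene of NRF2 itself, at 58.3 and 58.6 against 30.3 to 39.6. Of 25 glutathione transferase and xenobiotic genes 4 were lower (16%, against 10.3% of all genes), with GSTT1 at 0 and 0.043 against 5.46 to 12.4. SLC16A3, the lactate exporter MCT4, was at 0.435 and 0.318, with 10.5 and 14.7 in KYSE180 and 141 and 156 in KYSE30, while LDHB, a lactate dehydrogenase subunit, was at 2330 and 1630 against 774 to 910. In all, 5 of 33 glycolysis and hypoxia genes were higher and 3 lower (15.2% and 9.09%, near the shares over all genes), EPAS1 (HIF-2α) among the latter at 0.497 and 0.697 against 8.31 to 22.1. Of 30 sterol and fatty acid synthesis genes 7 were lower (23.3%) and 2 higher (6.67%). SC4MOL, a sterol demethylase, was lowest against the others at 9.5 and 10.6 against 36.3 to 86.8. FTL, ABCC2, NR0B1, SLC7A5, GSTT1, SLC16A3, EPAS1 and SC4MOL held with each library left out, while LDHB reached an adjusted p of 0.136 without the untreated KYSE30 library and NFE2L2 0.129 without the treated KYSE450 library. None of 14 housekeeping genes was called, and their median was 0.32.

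**Figure D4:**
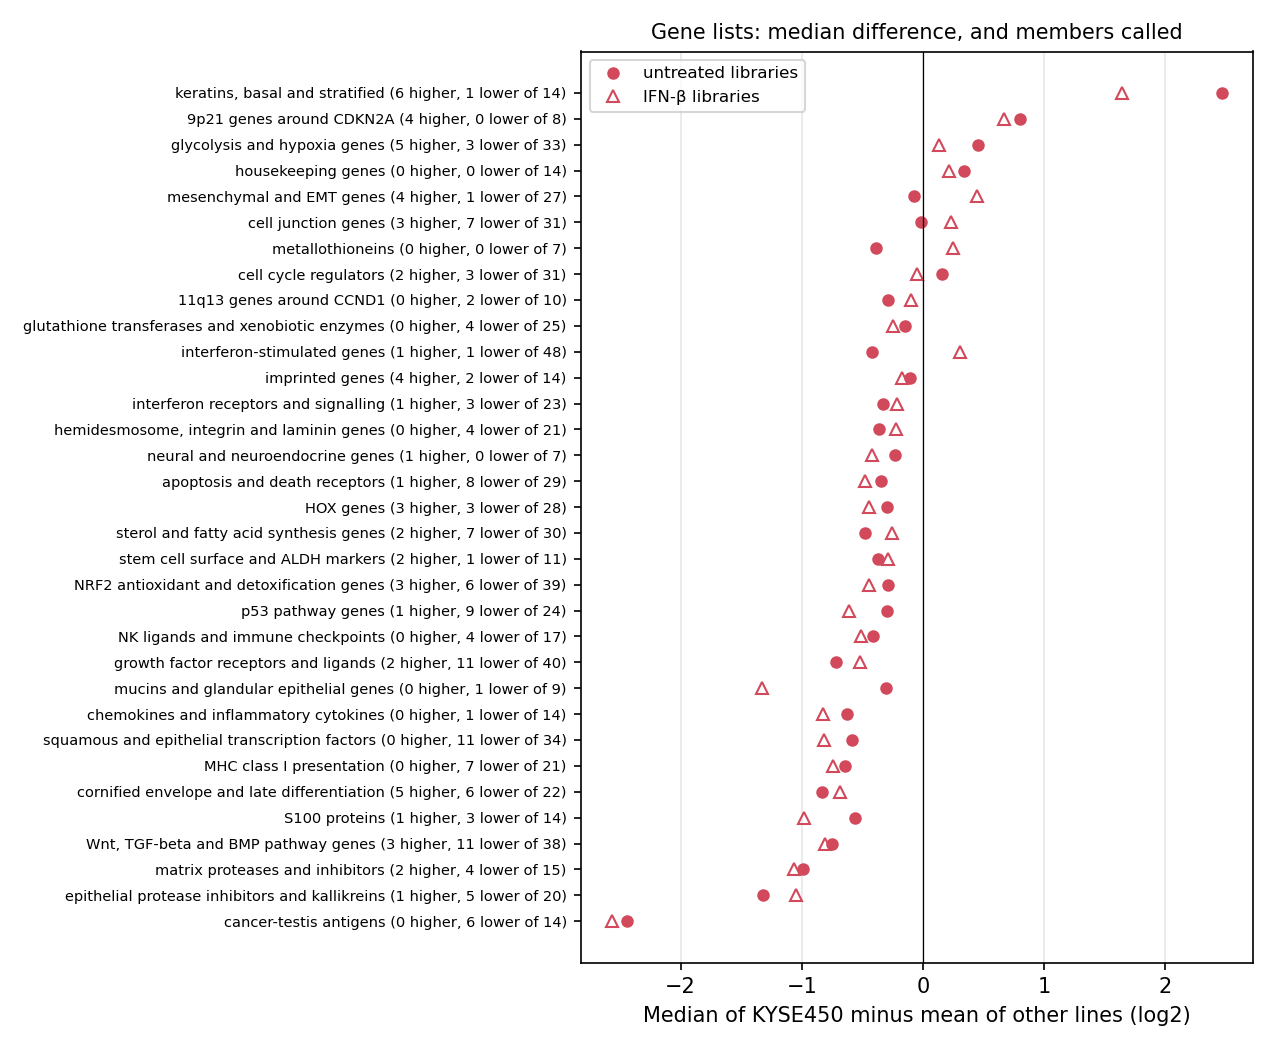
Points are the median log2 difference between KYSE450 and the mean of the other lines for each gene list with 5 or more members tested, among untreated and IFN-β libraries; each label gives the members called. Basal and stratified keratins stand at the top with a median of 2.15 and cancer-testis antigens at the bottom with -2.49.

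Of 21 genes of class I antigen presentation 7 were called lower (33.3%, against 10.3% of all genes) and none higher, with a median of -0.80. HLA-C was at 26.1 FPKM in untreated KYSE450 against 89.2 and 86.8, and at 198 after IFN-β against 828 and 490 (log2 difference -1.70 ± 0.18, adjusted p = 0.00265). HLA-B was at 21.6 against 62.8 and 51.6 untreated, and at 359 against 1130 and 624 treated, so its order held while every line had more of it under IFN-β. PSMB8, an immunoproteasome subunit, had the largest mean difference of these (log2, -3.95), at 0.162 and 2.05 in KYSE450 against 43.7 and 154 in KYSE180 and 2.55 and 27.8 in KYSE30. TAPBP and TAPBPL, which load and edit peptides, and CALR and HLA-E completed the 7. PSMB8 and TAPBPL held with each library left out, while HLA-B and HLA-C reached adjusted p-values of 0.269 and 0.0786 without the untreated KYSE30 library. HLA genes are highly polymorphic and alike, so their mapped reads may differ between lines. Of the ligands of natural killer cells MICB was at 1.44 and 2.84 against 5.76 to 42.7 (adjusted p = 0.0131, and 0.136 without the treated KYSE450 library).

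Interferon-stimulated genes did not set KYSE450 apart as a list. Of 48, 1 was called higher, HERC6 (2.08%, against 11.6% of all genes), and 1 lower, LGALS9 (2.08% against 10.3%). Their median difference was -0.42 among untreated and 0.31 among treated libraries, and a difference between these medians was not tested, because each line had 1 library per treatment. Of 23 receptor and signalling genes, JAK2 was called higher and IRF1, IRF2 and SOCS3 lower. IRF2 was at 3.31 and 5.56 FPKM in KYSE450 against 11.2 to 19.7, and IRF1, the sense partner of the study's long non-coding RNA, at 1.79 and 5.17 with 2.90 and 9.57 in KYSE180 and 7.81 and 21.1 in KYSE30. With each library left out IRF2 held and IRF1 reached an adjusted p of 0.244 without the treated KYSE450 library.

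Some genes reached a 2-fold gap under 1 treatment and not the other: 213 higher and 168 lower among untreated libraries, and 258 and 202 among treated ones. None was 2-fold apart in opposite directions. Few of them lost the difference from the mean of the other lines in the other treatment. This was counted as a mean log2 difference under 0.25 there in the same direction, among genes with a mean of 5 FPKM or more. Below the other lines untreated, and by that count not below their mean after IFN-β, were 5 genes, all known to respond to interferon: NMI, DDX60L, PRIC285, TRIM34 and PARP9. A gene near the mean can still be far from each line: treated DDX60L was at 17.2, with 6.37 in KYSE180 and 40.6 in KYSE30. NMI was at 2.64 untreated against 9.96 and 11.6, and at 38.7 treated against 30.0 and 59.4. The opposite set, higher untreated only, held 3 genes, the histone genes HIST1H4L and HIST1H4J and the interferon-induced IFI44, at 7.65 against 2.45 and 3.06 untreated and at 266 against 137 and 607 treated. Among 7 genes higher only among treated libraries were SEPHS2, at 10.9 and 35.6 in KYSE450 with 7.83 to 11.4 elsewhere, and the nuclear RNA MALAT1, at 268 and 676 with 156 to 282. None of these treatment-bound genes was called. They rest on 1 library each, and the treated KYSE450 library is the one with the low share of RMRP and RPPH1, whose part in them was not tested.

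Called genes were unevenly placed along the genome (GENCODE 29 positions for 10951 genes tested). On chromosome 19, 20.7% of genes were called lower and 6.13% higher, and on chromosome 20, 15.6% lower and 2.54% higher. Chromosomes 11 and 18 had the largest shares called higher, 19.5% and 19.2%. In windows of 20 neighbouring genes the highest median was 1.51, while the middle one of 10514 overlapping windows had a median of 0.0249. The window with the highest median, chromosome 19 from 19785839 to 23758891, holds a run of KRAB zinc finger genes from ZNF506 to ZNF681. Of these, 16 of 20 were called higher and none lower, and 13 held with each library left out. The window was picked by that median, so a high count of calls in it follows from the choice. Many of the genes called, ZNF486 and ZNF43 among them, stayed under 1 FPKM in the other lines and passed the filter through KYSE450 alone. Over all genes tested, 238 of 254 such genes were called higher. ZNF486 was at 6.26 and 6.01 FPKM in KYSE450 and listed at 0 in the other 4 libraries, and ZNF43 was at 2.91 and 3.37 against 0.0107 to 0.0638. Zinc finger genes of this cluster are alike in sequence, so reads may be shared among them.

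The next stretches are the other windows with the highest medians, without overlap. They were picked by those medians, so high counts of calls in them follow from the choice. Over all genes 11.6% were called higher. On chromosome 11, from 77514936 to 85811159, 14 of 20 were called higher, among them ALG8 at 91.3 and 93.9 FPKM against 25.1 to 38.8. On chromosome 4, from 48885019 to 56464579, 13 of 20 were, including the adjacent purine synthesis genes PAICS, at 260 and 222 against 40.1 to 75.6, and PPAT, at 63.1 and 66.9 against 19.4 to 26.6. On chromosome 5, from 1253147 to 13944543, 10 of 20 were, from TERT, the telomerase gene, at 1.38 and 1.94 against 0.0173 to 0.203, to DNAH5. On chromosome 2, from 46916157 to 55693910, 11 of 20 were, EPCAM among them. On chromosome 18, from 23689443 to 35143470, 11 of 20 were, and this stretch holds the desmosomal cadherin genes DSC2, DSC3 and DSG1. With each library left out 5, 9, 5, 4 and 5 genes of these stretches held, in the order given.

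Windows picked in the same way for the lowest medians included the MAGEA region of chromosome X, 151912509 to 153689010, and chromosome 9, 92613184 to 96778129. In the MAGEA region 8 of 20 were called lower and 1, the phosphatase gene DUSP9, higher at 6.80 and 4.92 against 0.352 to 1.38. On chromosome 9, 12 of 20 were called lower, and over all genes 10.3% were. A stretch of chromosome 18 from 49782167 to 51218304 was picked out after its values were seen, because ME2, the mitochondrial malic enzyme, was listed at 0 in both KYSE450 libraries and at 21 to 21.9 in the others. Its neighbour ELAC1, a tRNA-processing enzyme, was also listed at 0, against 1.29 to 3.46. SMAD4, the next gene, was at 5.58 and 5.04 against 11.1 to 15.1 (log2 difference -1.12 ± 0.13, adjusted p = 0.00443, and 0.0758 without the treated KYSE30 library). In this stretch 9 of 10 genes tested were called lower, and 4 held with each library left out, ME2, ELAC1, ACAA2 and MYO5B. On 9p21, MTAP, often lost with CDKN2A, was present in all lines and higher in KYSE450, at 44.6 and 51.4 against 17.7 to 18.5. DNA copy number was not measured.

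**Figure D5:**
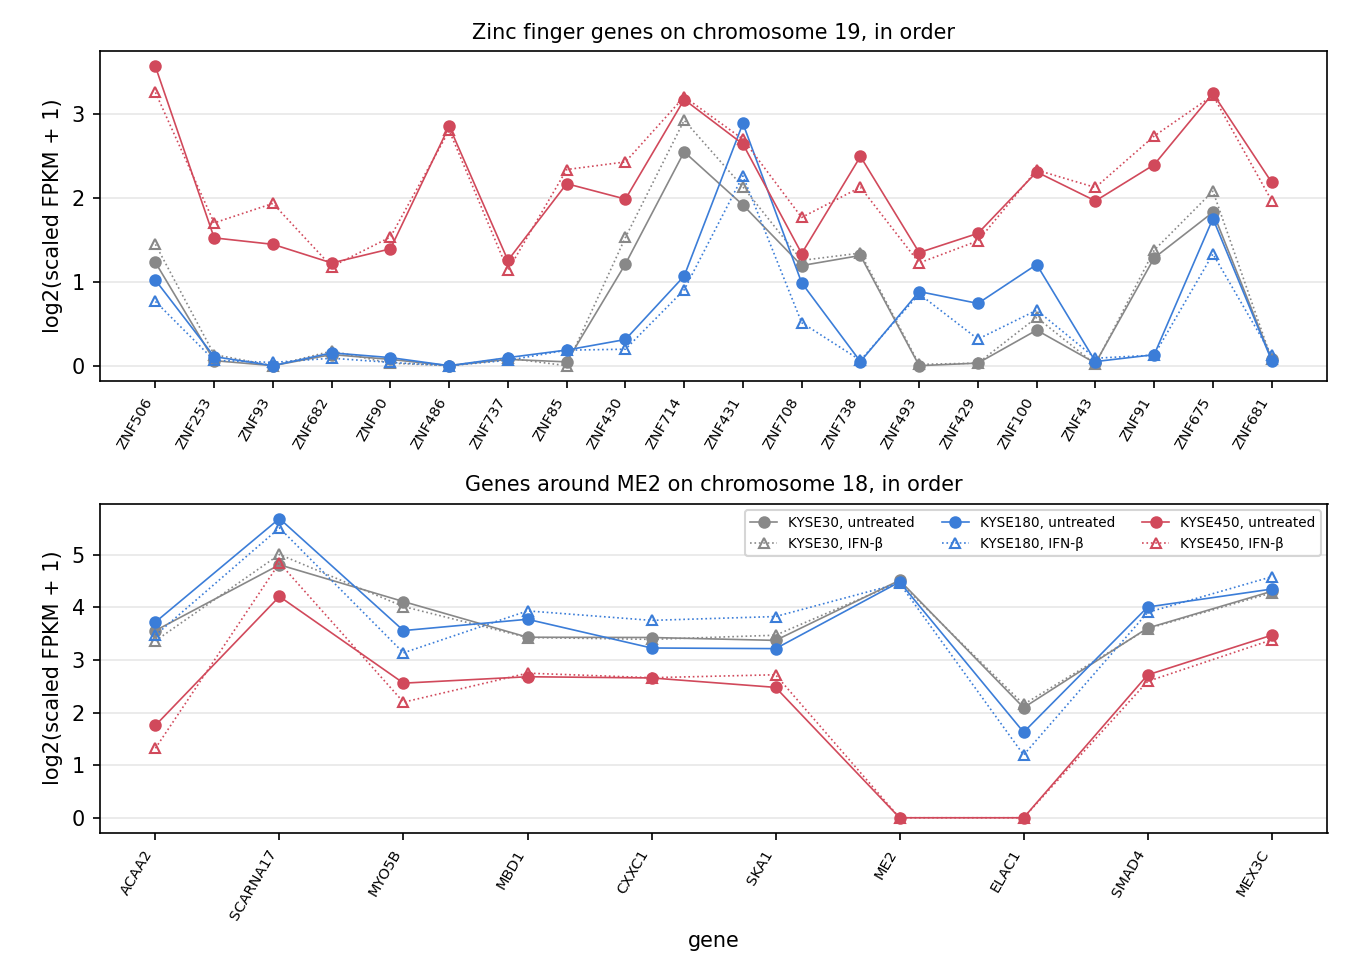
Levels per library, on the log2(scaled FPKM + 1) axis, of the 20 zinc finger genes in order along chromosome 19 (top) and of 10 genes in order around ME2 on chromosome 18 (bottom). KYSE450 lies above the other lines at most zinc finger genes, and at ME2 and ELAC1 it lies at 0.

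The vector control libraries of the knockdown experiment hold other cultures of KYSE30 and KYSE180, normalized separately and set beside KYSE450 without a test. Of the 20 genes with the largest gaps upward, 16 were found once in those tables, and in all 16 both vector controls lay more than 2-fold below both KYSE450 libraries. All 20 genes with the largest gaps downward lay more than 2-fold above them. KRT19 was at 1050 FPKM in the KYSE30 and 923 in the KYSE180 vector control, and MAGEA4 at 174 and 141. Of all genes 2-fold higher in KYSE450, 387 of 422 found (91.7%) had both vector controls below KYSE450, which 44.1% of all genes had. Of those 2-fold lower, 336 of 362 (92.8%) had both above, which 29.4% of all genes had. The gene levels themselves moved between cultures: KRT17 was at 214 in the KYSE30 vector control and at 3.28 and 3.36 in the libraries of the IFN-β experiment, KRT14 was at 3620 in the KYSE180 vector control, and ME2 was at 4.24 and 6.43. Of the list members that held with each library left out, 19 of 26 higher genes found had both vector controls below KYSE450 and 54 of 56 lower genes had both above. The 7 higher exceptions were TAGLN, at 61 in the KYSE180 vector control, KRT6C, at 21.5, SPRR1A, SPRR1B, SPRR2A and SPRR2D, at 127, 167, 7.83 and 9.93, and SLC7A5, at 354, and each of these was above both KYSE450 libraries. SLC7A5 and SPRR1A were above them in the KYSE30 vector control too, at 295 and 75.4. The lower exceptions were S100A14 and TRIM16L, at 36.1 and 45.2 in the KYSE180 vector control. For SLC7A5 and SPRR1A neither vector control lay on the side of the difference. For the other exceptions the KYSE30 vector control lay on that side of both KYSE450 libraries, and the KYSE180 vector control did not.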

How the data were processed

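RNA was sequenced from ESCC cell lines, 1 library per line and treatment. The deposited values are FPKM in 1 table per library, per the file headers; TopHat, HTSeq and hg38 appear in the submitters' processing notes, without versions. FPKM carry no read depth, so the counting error of a library is unknown. Rows typed lncRNA were left out, which left 20502 named genes. FPKM were divided by median-of-ratios factors (0.804 to 1.16, from 14130 genes above 0 in all 6 libraries) and taken as log2(FPKM + 1), which understates differences of low genes. Genes with 1 FPKM in 2 libraries were fitted in limma 3.58.1 (trend, robust; R 4.3.3) with line and treatment as terms. The larger of 2 p-values was adjusted by Benjamini-Hochberg over 12497 genes and called at 0.05. Simulated data had the noise that limma assumes and the same treatment effect in every line. Changes were placed only in genes with a mean log2 level above 1. There, 88% of genes changed by 1 log2 unit and 100% of those changed by 2 were recovered, and 7 of 12097 unchanged genes were called. These rates follow from those settings and do not speak for genes near the floor or lines that differ in their response. The comparison, its members and the 37 gene lists were chosen with earlier results of these data known. Named genes are the 20 with the largest smallest gap in each direction among called genes of 5 FPKM or more, up to 4 per list by the same gap, and genes 2-fold apart in 1 treatment only. Other genes named were chosen after their values were seen. Positions come from GENCODE 29 (GRCh38), promoters from RefSeq.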

Additional observations from a re-analysis of the deposited data

How the results depend on the processing

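The labels give each line 1 library per treatment, so depth and the variation between cultures are not measured, and most of the spread behind a p-value is borrowed across genes. The genes with the 20 largest gaps in each direction, 40 in all, were all called under every alternative except 3: 32 were called, the others not being tested, with a mean of at least 5 FPKM required, 30 with the line as a random block, and 0 with 1 mean per line. These 40 were picked from called genes by their gaps in the same libraries, so their calls do not speak for those of other genes. Genes called higher and lower numbered 300 and 256 with the other lines as 1 group, 14 and 23 with the line as a random block, and 0 and 0 with 1 mean per line (286 and 287 at an unadjusted p under 0.05 in limma). Leaving out 1 library gave 665 to 1488 higher and 608 to 1256 lower. Values as deposited gave 1008 and 1009, of which 936 and 941 were also called after scaling. By size alone, 263 genes were 2-fold higher with that minimum, 700 were 2-fold lower with a pseudocount of 0.1, and 85 and 94 were 4-fold higher and lower. For 11 of the named genes that stood apart under 1 treatment the sign changed when the KYSE450 library of that treatment was left out, which by construction removes that treatment from the difference. Over the libraries left out, the difference ran from -0.0856 to 1.65 for HIST1H4L, -0.12 to 1.21 for IFI44, -0.00486 to 1.83 for SEPHS2, -0.31 to 1.43 for SRRM2, -0.16 to 1.42 for TARDBP, -1.57 to 0.0723 for PRIC285, -1.41 to 0.18 for TRIM34, -1.45 to 0.0535 for DDX60L, -1.34 to 0.00458 for PARP9, -1.85 to 0.27 for SNHG10 and -1.63 to 0.0758 for ROMO1.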
